A study of Mus musculus with 6 samples.

Results

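The proteins that run and restrain the cell division cycle were followed here at the level of their transcripts in mouse thymus. The set held the cyclins, the numbered cyclin-dependent kinases (CDKs), the CDK inhibitor (Cdkn) genes, the E2F transcription factors, the numbered cell division cycle (Cdc) genes, the retinoblastoma family Rb1, Rbl1 and Rbl2, and Mki67. Members were chosen by gene symbol, and by a minimum of 10 reads summed over the 6 libraries, which left 84 genes of 24054 in the table. Ccnb3, a meiotic cyclin with 6 reads in all, fell under the minimum, and Ccna1, with 20 reads, was the member nearest above it. Symbols gather genes by name, so the set also holds cyclins and CDKs of transcription and Cdc-named genes of splicing or cell polarity, which are given apart.

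Messenger RNA was sequenced from whole thymus in 3 control libraries and 3 libraries of the genotype K5-rtTA:TetO-RANKL. In the latter a doxycycline-dependent activator under a keratin 5 promoter, which is used by basal and medullary epithelium, turns on a transgene for the cytokine RANKL. The controls were monogenic, so they carried 1 of the 2 transgenes, which one is not said, and mice of both groups received doxycycline in food and water. The sample texts give a start at 9 weeks of age and 2 weeks of doxycycline, whereas the series text gives 8 weeks of age and 1 week. Strain and sex are not given in the labels. The labels do not say whether the libraries came from separate animals, so each p-value speaks only of the spread among these 6 samples, which may be technical. The comparison throughout is RANKL over control.

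In textbook outline, D-type cyclins carry growth signals into the cycle by activating CDK4 and CDK6, which phosphorylate the retinoblastoma protein and its relatives. E2F factors are thereby freed to turn on genes of DNA replication, cyclin E with CDK2 drives entry into S phase, and cyclins A and B with CDK1 drive mitosis until the anaphase-promoting complex destroys them. INK4 proteins block CDK4 and CDK6, and Cip/Kip proteins block CDK2 complexes. In the thymus most division takes place in immature thymocytes after the pre-T cell receptor has signalled, a burst for which cyclin D3 is the needed D-type cyclin, while epithelium and fibroblasts use mainly cyclin D1.

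Library totals ran from 18254870 to 25357060 counted reads, so 3 reads, the limit that a count of 0 allows, corresponded to 0.122 to 0.161 CPM (reads of a gene scaled to library size, with TMM factors); such limits cover counting error only. Transcripts of the induced gene, Tnfsf11, stood at 6.01, 6.34 and 8.89 CPM in control and at 3334, 4812 and 2389.7 CPM in RANKL libraries. The cell makeup of the tissue moved with the groups: the summed level of 12 double-positive thymocyte markers was 11788 to 13605 in control and 308 to 1219.9 in RANKL libraries (CPM), and that of 8 pan-T markers was 4542 to 6057 in control and 331 to 878 in RANKL libraries. Sums over 8 genes each of thymic epithelium were 1031 to 1252 in control and 4988 to 6144 in RANKL libraries, of fibroblasts 469.7 to 679.8 in control and 4887 to 10069 in RANKL libraries and of macrophages 219 to 311 in control and 1759 to 2379 in RANKL libraries. Lgals3 and Cd14 were the largest parts of the macrophage sum in RANKL libraries (means of 730 and 508 CPM). Single macrophage markers rose by 1.37 (Mertk) to 6.35 (Cd14) as log2 fold changes. In whole tissue, fewer cells of a type and less RNA per cell cannot be told apart. The part of cell makeup in the changes below was not tested.

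Most of the cell cycle set fell. Of 84 members, 81 passed the low-count filter and were tested, and 57 fell, 7 rose and 17 were not called at an adjusted p under 0.05 (edgeR's quasi-likelihood test, Benjamini-Hochberg adjustment over 16096 genes). Of all genes tested, 63.4% were called, 29.6% lower and 33.8% higher, while the members' shares were 70.4% lower and 8.64% higher. The median log2 fold change was -0.91 over the members and -0.02 over all tested genes. Libraries of the groups did not overlap for 59 members with RANKL below and 9 with RANKL above, against 34.1% and 36.1% of all tested genes. The risers were Cdkn1a, Cdkn2b, Cdkn2a, Cdk18, Ccnd1, Cdkn1c and Cdc14b, of which 4 are inhibitors of CDKs. The steepest falls among members whose groups did not overlap were E2f2, Ccnd3, Ccne2, Cdc6 and Cdk20. The members not tested for low reads were Ccna1, Cdk15 and Cdc20b. With a test against a 1.5-fold change, which 27.4% of genes passed as higher and 16.5% as lower, 6 members were higher and 42 lower.

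**Figure D1:**
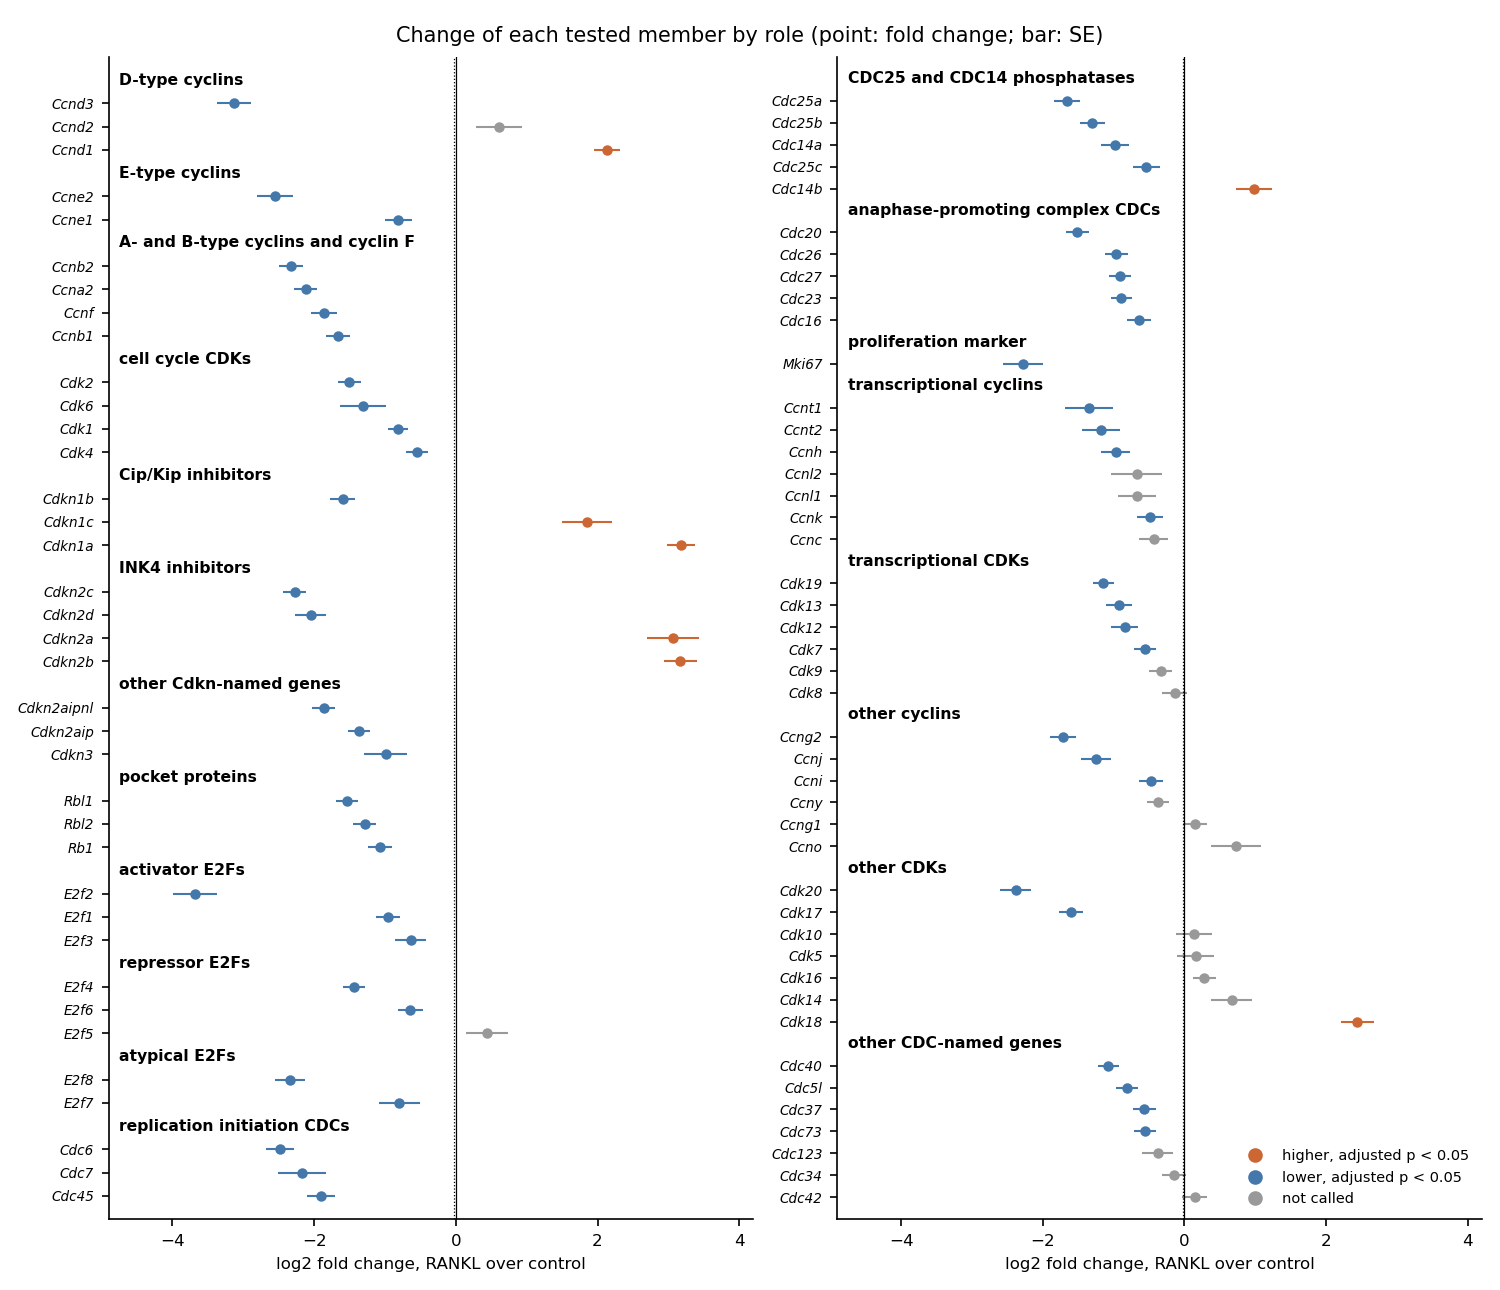
Log2 fold change (x axis, RANKL over control) of each of the 81 tested members, grouped by role; points are edgeR estimates, bars are standard errors, and the dotted line is the median of all tested genes, -0.02. The E-, A- and B-type cyclins, the cell cycle CDKs and the pocket proteins lie left of 0, whereas D-type cyclins and both inhibitor families hold members on either side.

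The 3 D-type cyclins went in different directions. Ccnd3 (Entrez gene 12445, chromosome 17, 47505051 to 47599689 in GRCm38), the D-type cyclin of dividing thymocytes, had 1329, 1062 and 1352 CPM in the control libraries and 106, 138 and 181 CPM in the RANKL libraries. Every RANKL library lay far below every control, with RANKL replicate 3 the highest of its group, and the mean fell 8.797-fold, which is -3.14 ± 0.24 (the error is the SE; adjusted p by edgeR = 9.67e-06) as a log2 fold change. Ccnd1 (chromosome 7, 144929931 to 144939831), which links growth factor signals to CDK4 in epithelium and mesenchyme, had 30.4, 25.3 and 22.5 CPM in the control libraries and 133, 103 and 107 CPM in the RANKL libraries. The groups did not overlap, the control spread was narrow, and the change was 2.13 ± 0.18 (edgeR adjusted p = 1.54e-05), or 4.38-fold on the means. Ccnd2 (chromosome 6, 127125162 to 127152188), used by many blood cells, had 299.98, 162 and 168 CPM in the control libraries and 456, 197 and 309.5 CPM in the RANKL libraries. Here control replicate 1 stood above RANKL replicate 2, the groups overlapped, and the estimate of 0.61 ± 0.33 (edgeR adjusted p = 0.128) was not called; it passed the threshold without control replicate 1 (0.94, adjusted p = 0.0321) or without RANKL replicate 2 (0.89, adjusted p = 0.0213).

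Per kilobase of exon the order of the D-type cyclins differed between the groups. In control, Ccnd3 stood at 142 ± 18.4 RPKM (CPM divided by exon length in kilobases; mean ± SD, n = 3), Ccnd2 at 22.3 ± 8.31 and Ccnd1 at 5.53 ± 0.847, with no overlap between neighbours in that order. In RANKL libraries Ccnd2 stood at 34.1 ± 13.8, Ccnd1 at 24.2 ± 3.42 and Ccnd3 at 16.2 ± 4.26, where Ccnd2 overlapped Ccnd1, and all libraries of Ccnd3 lay below those of both others, by little. Ccnd3 made up 83.8% ± 3.73 of the summed D-type level in control and 22.5% ± 7.69 in RANKL, whereas the share of Ccnd1 was 3.28% ± 0.525 and 32.97% ± 3.998. The sum itself was 170.04 ± 23.8 in control and 74.5 ± 15.1 in RANKL on the same scale. Lengths were those of all annotated exons together, so levels between genes hold only as far as that length stands for the transcripts present.

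**Figure D2:**
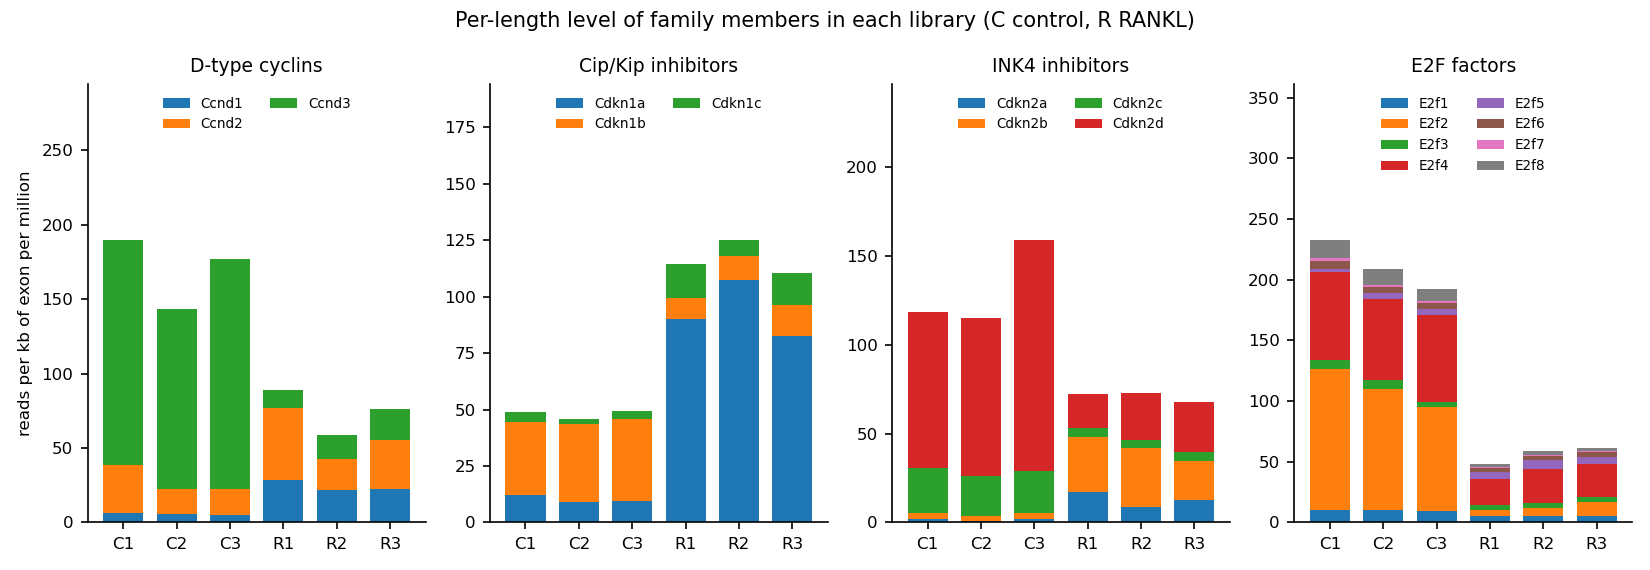
Per-length level (y axis, RPKM) of the members of 4 families, stacked for each control (C1 to C3) and RANKL (R1 to R3) library. Ccnd3 fills most of the D-type bars of control and a small part of those of RANKL, and Cdkn1a most of the Cip/Kip bars of RANKL.

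Cyclins of S phase and mitosis fell together. Ccne2, an E-type partner of CDK2 at the start of S phase, had 22.4, 18.8 and 16.4 CPM in the control libraries and 3.12, 3.82 and 2.83 CPM in the RANKL libraries, a change of -2.55 ± 0.25 (edgeR adjusted p = 2.89e-05). Its paralog Ccne1 had 27.7, 29.6 and 32.7 CPM in the control libraries and 13.8, 19.1 and 18.2 CPM in the RANKL libraries, also without overlap, and changed less, by -0.82 ± 0.19 (edgeR adjusted p = 0.00434). Ccna2, the cyclin of S phase and G2, had 197, 169 and 204 CPM in the control libraries and 38.8, 47.8 and 44.4 CPM in the RANKL libraries, again without overlap, with a log2 fold change of -2.12 ± 0.16. Among B-type cyclins, which drive mitosis with CDK1, Ccnb1 had 121, 114 and 115 CPM in the control libraries and 30.6, 43.6 and 36.1 CPM in the RANKL libraries. Ccnb2 had 135, 130.04 and 144 CPM in the control libraries and 22.4, 29.6 and 29.3 CPM in the RANKL libraries. All RANKL libraries lay below all controls for both, and the log2 fold changes were -1.66 ± 0.17 and -2.33 ± 0.17. Ccnf, an F-box protein that targets substrates for ubiquitination in G2, fell by 1.86 on the log2 scale. Ccna1, the germ-line cyclin A, had 0, 1 and 0 reads in control and 1, 10 and 8 in RANKL libraries, too few to test after filtering; with no low-count filter it was called higher.

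All 4 CDKs of the cycle fell. Cdk1, the mitotic kinase, had 161, 159 and 172 CPM in the control libraries and 97.2, 88.9 and 93.8 CPM in the RANKL libraries, a change of -0.81 ± 0.14 (edgeR adjusted p = 0.000778). Cdk2, the partner of cyclins E and A, had 109, 126 and 115 CPM in the control libraries and 35.6, 40.9 and 46.7 CPM in the RANKL libraries and its change was -1.51 ± 0.16. Cdk6 had 23.8, 17.9 and 10.4 CPM in the control libraries and 5.65, 8.91 and 6.36 CPM in the RANKL libraries, a change of -1.31 ± 0.33 (edgeR adjusted p = 0.00615); the groups were apart, with control replicate 3 the lowest of the controls. Cdk4 had 266, 245 and 313 CPM in the control libraries and 180.2, 196 and 185 CPM in the RANKL libraries, the smallest change of the 4 at -0.55 ± 0.16 (edgeR adjusted p = 0.0122). Its call was lost without RANKL replicate 1 (edgeR adjusted p = 0.056) or RANKL replicate 3 (adjusted p = 0.0526). Cdk4 shares 641 exon bases, 19.7% of its exon length, with Tspan31 on the opposite strand, and Tspan31 reads are a separate entry of the table whose strand rule is not given in the sources used here.

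**Figure D3:**
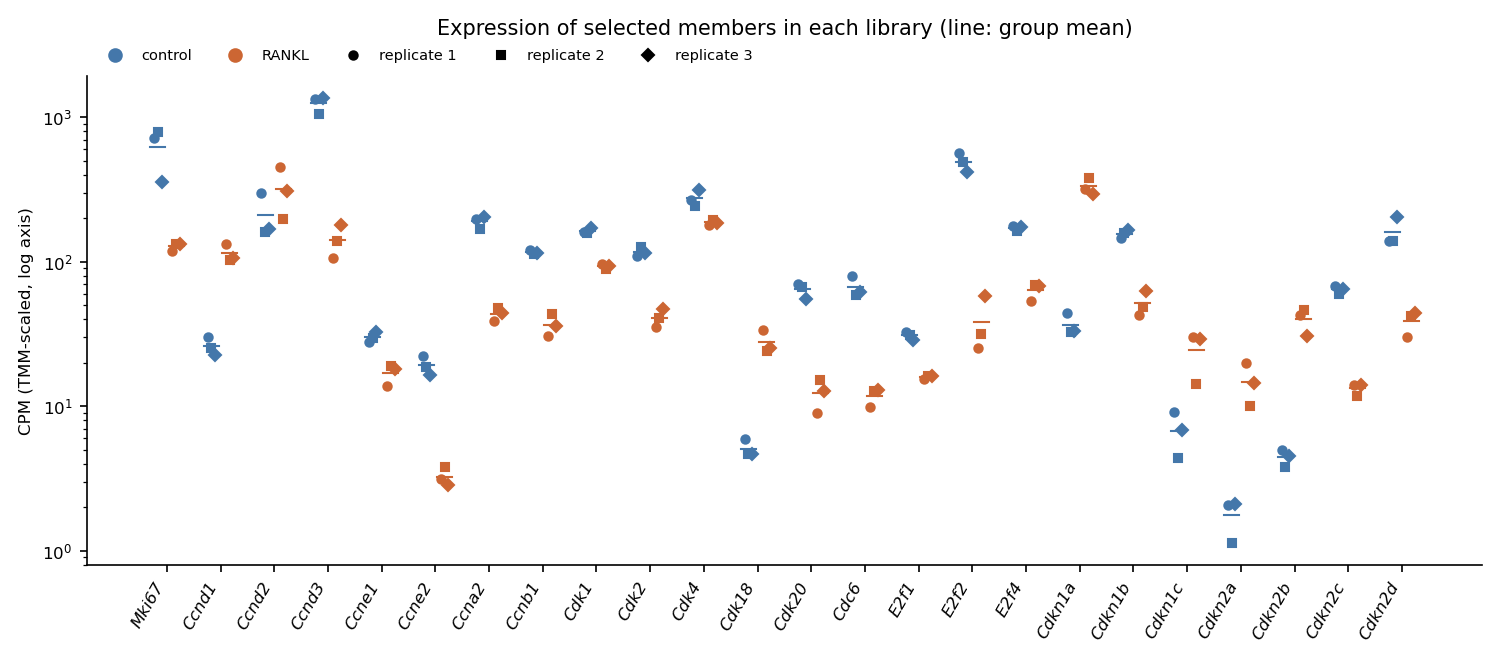
Level in each library (y axis, CPM on a log axis) of 24 members; blue is control, orange is RANKL, marker shapes are replicates and lines are group means. Libraries of the groups are apart for every gene drawn except Ccnd2.

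Both families of CDK inhibitors split. Cdkn1a (chromosome 17, 29090979 to 29100722), which encodes p21, the inhibitor that p53 and differentiation signals induce, had 43.9, 32.9 and 33.3 CPM in the control libraries and 320.3, 382 and 294 CPM in the RANKL libraries. It was the largest riser of the set at 9.05-fold, or 3.18 ± 0.20 (the error is the SE; adjusted p by edgeR = 4.61e-06) on the log2 scale, and its libraries kept to a narrow range within each group. Cdkn1c (p57), an imprinted inhibitor of many differentiating cells, had 9.07, 4.38 and 6.88 CPM in the control libraries and 30.2, 14.2 and 28.98 CPM in the RANKL libraries; the groups did not overlap, RANKL replicate 2 was the lowest of its group, and the change was 1.85 ± 0.35 (edgeR adjusted p = 0.00137). Cdkn1b (chromosome 6, 134920401 to 134925525), which encodes p27, the inhibitor of resting lymphocytes, had 146, 157 and 166 CPM in the control libraries and 43.1, 48.96 and 62.8 CPM in the RANKL libraries and fell, by a change of -1.60 ± 0.18 (edgeR adjusted p = 5.81e-05). On the per-length scale, p21 transcript made up 21.5% ± 3.36 of the family's summed level in control and 79.8% ± 5.63 in RANKL, and p27 transcript 71.6% ± 5.27 and 9.78% ± 2.34. The sum over the family was 48.02 ± 1.79 and 117 ± 7.52 RPKM.

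Of the INK4 genes, the neighbours Cdkn2a (chromosome 4, 89274473 to 89294619) and Cdkn2b (chromosome 4, 89306289 to 89311032) rose. Cdkn2b, which encodes p15, an inhibitor known to respond to TGF-beta, had 4.96, 3.81 and 4.54 CPM in the control libraries and 42.8, 46.3 and 30.7 CPM in the RANKL libraries. Cdkn2a had 2.06, 1.13 and 2.102 CPM in the control libraries and 19.97, 9.96 and 14.5 CPM in the RANKL libraries. Control libraries held only 39, 22 and 44 reads of Cdkn2a, so its fold is the less precise, at 3.06 ± 0.36 (edgeR adjusted p = 8.68e-05), against 3.17 ± 0.23 (edgeR adjusted p = 8.55e-06) for Cdkn2b. Counts per gene do not separate the p16 and ARF products of Cdkn2a, which start from different first exons. Cdkn2c (p18), an inhibitor that restrains thymocyte division, had 68.3, 59.99 and 64.6 CPM in the control libraries and 13.9, 11.8 and 14.1 CPM in the RANKL libraries. Cdkn2d (p19INK4D) had 138, 139.9 and 204 CPM in the control libraries and 30.1, 41.9 and 44.3 CPM in the RANKL libraries. RANKL libraries lay below all controls for both, with log2 fold changes of -2.28 ± 0.17 and -2.05 ± 0.22 and no call lost in any alternative. Per length, Cdkn2d was the highest of the 4 in control, 102 ± 23.9 RPKM, and in RANKL libraries Cdkn2b, at 28.7 ± 5.91, and Cdkn2d, at 24.6 ± 4.82, lay within their spread of each other. A further 3 genes carry Cdkn names without being inhibitors of these families, and all fell: Cdkn3, a phosphatase that acts on CDKs (-0.99), Cdkn2aip (-1.37) and Cdkn2aipnl (-1.86). The call of Cdkn3 was lost without control replicate 3 or RANKL replicate 1 or 3 (edgeR adjusted p = 0.0657, 0.0634 and 0.0647).

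The pocket proteins, which hold E2Fs in check, fell in 3 of 3. Rb1 had 91.9, 109 and 93.2 CPM in the control libraries and 40.7, 53.96 and 45.2 CPM in the RANKL libraries. Rbl1 (p107) had 93.6, 91.2 and 91.7 CPM in the control libraries and 28.2, 30.3 and 36.6 CPM in the RANKL libraries. Rbl2 (p130) had 151, 147 and 157 CPM in the control libraries and 60.5, 54.003 and 72.1 CPM in the RANKL libraries. Groups were apart for each, and the log2 fold changes were -1.07 ± 0.17, -1.54 ± 0.16 and -1.29 ± 0.16.

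Of 8 E2F genes, 7 fell. E2f2 (chromosome 4, 136172274 to 136196057), an activator E2F with a known role in restraining T cell division, had 565, 489 and 418 CPM in the control libraries and 25.5, 31.6 and 57.5 CPM in the RANKL libraries. It was the largest decrease of the whole set, 12.9-fold on the means, at -3.68 ± 0.31 (the error is the SE; adjusted p by edgeR = 1.50e-05), and RANKL replicate 3 held the most of it among RANKL libraries. The other activators changed less: E2f1 had 32.4, 31.3 and 28.96 CPM in the control libraries and 15.4, 16.1 and 16.1 CPM in the RANKL libraries (-0.96 ± 0.17, edgeR adjusted p = 0.000775), with no overlap. E2f3 had 44.1, 38.1 and 25.2 CPM in the control libraries and 22.1, 25.4 and 21.4 CPM in the RANKL libraries. For E2f3, control replicate 3 lay within the RANKL range, and its call at -0.64 ± 0.22 (edgeR adjusted p = 0.0294) was lost without control replicate 1 or 2, without RANKL replicate 1 or 3, with upper-quartile factors and with a block for the title number (adjusted p from 0.0548 to 0.127). Of the repressor E2Fs, E2f4, which binds pocket proteins in resting cells, changed by -1.44 ± 0.16. It had 176, 164 and 174 CPM in the control libraries and 53.1, 68.8 and 67.95 CPM in the RANKL libraries. E2f6 had 36.01, 29.8 and 26.6 CPM in the control libraries and 20.1, 19.8 and 19.3 CPM in the RANKL libraries (-0.64 ± 0.18), without overlap. E2f5 had 5.01, 8.81 and 10.1 CPM in the control libraries and 10.01, 12.3 and 10.1 CPM in the RANKL libraries, overlapped and was not called at 0.44 ± 0.29 (edgeR adjusted p = 0.212). The atypical E2Fs, feedback repressors that E2Fs themselves induce, were E2f8, with 81.1, 69.4 and 55.5 CPM in the control libraries and 10.7, 15.7 and 14.3 CPM in the RANKL libraries (-2.34 ± 0.21, edgeR adjusted p = 2.16e-05), and E2f7. E2f7 had 23.1, 15.05 and 10.9 CPM in the control libraries and 9.37, 10.2 and 8.62 CPM in the RANKL libraries, and the groups were narrowly apart. E2f7 moved less, -0.80 ± 0.29 (edgeR adjusted p = 0.0338), and lost its call without control replicate 1 or 2, without RANKL replicate 1 or 3, with upper-quartile factors, with limma-voom and with the title-number block (adjusted p from 0.0534 to 0.136).

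Per length, E2f2 made up 47.4% ± 2.64 of the summed E2F level in control, ahead of E2f4 at 33.3% ± 3.19. In RANKL libraries E2f4 came first with 46.05% ± 1.49, and E2f2 held 13.7% ± 4.79. The sum over the 8 genes was 211 ± 20.3 RPKM in control and 55.99 ± 6.99 in RANKL.

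Cdc genes of replication fell the most of the Cdc names. Cdc6, which loads the replicative helicase at origins, had 79.3, 58.4 and 61.8 CPM in the control libraries and 9.85, 12.7 and 13.01 CPM in the RANKL libraries, a change of -2.49 ± 0.20 (edgeR adjusted p = 1.15e-05). Cdc45, part of the active helicase, and Cdc7, the kinase that fires origins, changed by -1.91 ± 0.20 and -2.17 ± 0.34, and no RANKL library reached a control library for any of the 3. The CDC25 phosphatases, which remove the inhibitory phosphates of CDKs, fell in 3 of 3. Cdc25a had 96.9, 74.2 and 65.03 CPM in the control libraries and 24.1, 24.8 and 25.9 CPM in the RANKL libraries (-1.66 ± 0.18). Cdc25b had 114, 111 and 106 CPM in the control libraries and 35.4, 52.3 and 46.6 CPM in the RANKL libraries (-1.30 ± 0.18). Cdc25c had 16.2, 17.8 and 17.01 CPM in the control libraries and 12.2, 10.8 and 12.2 CPM in the RANKL libraries (-0.54 ± 0.19), and libraries of the groups were apart for all 3. The call of Cdc25c was lost in 6 of 15 alternatives (adjusted p from 0.0727 to 0.106), among them each RANKL library left out. The CDC14 phosphatases parted, Cdc14a falling from 28.7 ± 2.41 to 14.5 ± 2.37 CPM and Cdc14b rising from 11.8 ± 3.51 to 23.5 ± 4.17 CPM (0.99 ± 0.25, edgeR adjusted p = 0.00704), without overlap in either.

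Of the anaphase-promoting complex, which marks cyclin B for destruction, all 5 members fell. Its mitotic activator Cdc20 had 146, 122 and 142 CPM in the control libraries and 41.7, 53.9 and 47.97 CPM in the RANKL libraries, a change of -1.51 ± 0.16 (edgeR adjusted p = 5.09e-05). The core subunits Cdc16, Cdc23, Cdc26 and Cdc27 changed less, from -0.96 for Cdc26 to -0.64 for Cdc16, and the call of Cdc16 was lost without RANKL replicate 1 (edgeR adjusted p = 0.0584). Mki67, the nuclear antigen of dividing cells, had 714, 794 and 359 CPM in the control libraries and 118, 133 and 132 CPM in the RANKL libraries. RANKL libraries stood close together and below every control, while control replicate 3 stood well under the other control libraries; the change was -2.28 ± 0.28 (edgeR adjusted p = 0.000104).

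Promoters of 4 members that fell and act in S phase or mitosis are printed because they hold the letters by which cell cycle promoters are usually recognised. Each line gives the 200 bases before the RefSeq transcript start of GRCm38.p6, 5′ to 3′ on the gene's strand, with matches in capitals: TTTGAA (the core of the cell cycle homology region, CHR), CCAAT (the NF-Y box), and TTTGGCGC or TTTCCCGC (E2F-type), each on either strand.
Ccnb2, chr9:70421555-70421754, minus strand: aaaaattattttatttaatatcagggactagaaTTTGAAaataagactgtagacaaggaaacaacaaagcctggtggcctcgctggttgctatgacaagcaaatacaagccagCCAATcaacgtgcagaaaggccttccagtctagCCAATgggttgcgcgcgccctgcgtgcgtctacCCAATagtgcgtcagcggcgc
Mki67, chr7:135716380-135716579, minus strand: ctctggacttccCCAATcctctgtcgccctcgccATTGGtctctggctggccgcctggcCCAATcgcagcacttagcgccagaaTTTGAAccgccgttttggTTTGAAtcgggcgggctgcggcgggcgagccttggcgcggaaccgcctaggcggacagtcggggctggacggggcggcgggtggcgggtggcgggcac
E2f8, chr7:48881597-48881796, minus strand: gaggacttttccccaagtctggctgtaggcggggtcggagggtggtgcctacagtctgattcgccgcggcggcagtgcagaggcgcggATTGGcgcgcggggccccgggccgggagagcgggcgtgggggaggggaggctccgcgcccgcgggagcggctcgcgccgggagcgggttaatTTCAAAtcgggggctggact
Cdc25a, chr9:109875379-109875578, plus strand: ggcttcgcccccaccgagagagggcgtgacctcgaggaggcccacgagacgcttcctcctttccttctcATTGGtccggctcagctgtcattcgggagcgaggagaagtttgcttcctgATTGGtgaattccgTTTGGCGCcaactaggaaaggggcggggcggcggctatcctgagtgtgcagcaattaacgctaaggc
In Ccnb2, 3 CCAAT boxes begin 87, 54 and 21 bases before the start and a CHR core 167 bases before it. Mki67 holds 2 CHR cores, 116 and 98 bases before the start, and E2f8 holds 1, on the reverse strand 20 bases before it. Cdc25a holds an E2F-type match 67 bases before the start and no CHR core in this window.

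RefSeq windows from 250 bases before to 50 after the start were at hand for 69 of 84 members, 80 windows in all, some genes having several. The windows of members that fell came from 48 genes, of those that rose from 5 and of those not called from 13. Among the risers, Ccnd1 and Cdkn1c had no window. Shares below are of windows, so a gene with several counts more than once. A CHR core was in 17 of 55 windows of members that fell (30.9%), 1 of 8 of those that rose and 1 of 14 of those not called, against 17.9% of 32851 windows of all genes. An E2F-type match was in 6 of the 55 windows of members that fell (10.9%), 1 of 8 of those that rose and 0 of 14 of those not called, against 1.56% of all. CCAAT was in 28 windows of members that fell (50.9%), 3 of those that rose and 6 of those not called (42.9%), against 37.4% of all. The Sp-type letters GGGCGG, which can share bases with TTTCCCGC, were in 42 (76.4%), 5 (62.5%) and 11 (78.6%) of these windows in the same order, against 35.7% of all, a like share whether members fell or were not called. These shares were not tested, and promoters differ in base composition.

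Members named as cyclins or CDKs but working in transcription had median log2 fold changes of -0.67 and -0.70, against -1.06 for the CDKs of the cycle. Of 7 transcriptional cyclins 4 fell, Ccnt1 (-1.35), Ccnt2 (-1.18), Ccnh (-0.97) and Ccnk (-0.48), and Ccnl1, Ccnl2 and Ccnc were not called, at -0.67, -0.67 and -0.44. Cyclins T1 and T2 activate the elongation kinase CDK9, and cyclin H belongs to the CDK-activating kinase. Of 6 transcriptional CDKs, Cdk19 (-1.14), Cdk13 (-0.92), Cdk12 (-0.84) and Cdk7 (-0.55) fell, while Cdk9, at -0.33, and Cdk8, at -0.14, were not called. Control replicate 2 held the most Ccnl1 and Ccnl2 of all libraries, 186 and 265 CPM. Ccnl1 was called lower with DESeq2 (adjusted p = 0.0346) and with no low-count filter (edgeR adjusted p = 0.0285). It was also called without control replicate 1 (edgeR adjusted p = 0.0358) or RANKL replicate 3 (0.0381). Ccnc was called lower with the title-number block (edgeR adjusted p = 0.0494) and without control replicate 1 (0.0459). The calls of Ccnk and Cdk7 were lost in 8 and 2 alternatives, Ccnk with adjusted p from 0.0502 to 0.138 and Cdk7 at 0.0685 and 0.0616, without RANKL replicate 1 and RANKL replicate 3.

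The remaining kinases held 1 riser. Cdk18, a PCTAIRE-type kinase, had 5.96, 4.69 and 4.63 CPM in the control libraries and 33.5, 24.1 and 25.4 CPM in the RANKL libraries, apart in all libraries and changed by 2.44 ± 0.23 (edgeR adjusted p = 2.48e-05). Its relatives differed: Cdk17 fell, with -1.60 ± 0.17, and Cdk16 was not called, at 0.28 ± 0.16. Cdk20, a kinase linked to cilia and to CDK2 activation, had 70.5, 66.95 and 55.3 CPM in the control libraries and 9.04, 15.1 and 12.7 CPM in the RANKL libraries and was among the 5 largest decreases, at -2.38 ± 0.22 (edgeR adjusted p = 2.27e-05). Cdk5, the neuronal kinase, Cdk10 and Cdk14 were not called, at 0.16, 0.13 and 0.66; without control replicate 1, Cdk5 was at -0.10 and Cdk10 at -0.084. Cdk14 passed the threshold in 2 alternatives (adjusted p by edgeR 0.0377 with upper-quartile factors, 0.0363 without control replicate 1), and Cdk15 had 45 reads in all. Of other cyclins, Ccng2, an atypical cyclin of arrested cells, fell from 292 ± 33.1 to 89.01 ± 14.1 CPM (-1.72 ± 0.18), and Ccnj (-1.25) and Ccni (-0.47) fell. The call of Ccni was lost with upper-quartile factors and without control replicate 3 or any 1 of the RANKL libraries (adjusted p from 0.0724 to 0.106). Ccng1, a p53 target, was not called at 0.15 ± 0.17, nor were Ccny (-0.37) and Ccno (0.73). Ccny was called lower with no low-count filter (edgeR adjusted p = 0.0293), with the title-number block (0.0336) and without control replicate 2 (0.0303).

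Of the remaining Cdc-named genes, Cdc40 and Cdc5l, of the spliceosome, fell by 1.07 and 0.81 on the log2 scale. The kinase co-chaperone Cdc37 (-0.57) and Cdc73 of the polymerase-associated factor complex (-0.55) fell as well, Cdc73 without a call when RANKL replicate 3 was left out (edgeR adjusted p = 0.0578). The polarity GTPase Cdc42, at 0.14 ± 0.18, the ubiquitin-conjugating enzyme Cdc34, at -0.14 ± 0.17, and Cdc123, at -0.38 ± 0.22, were not called. Cdc123 was called lower with the title-number block (edgeR adjusted p = 0.0364) and without control replicate 1 (0.0441). Cdc20b had 51 reads in all libraries together.

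Genes of the same pathway that the symbols did not gather were read from 5 lists. Of 13 E2F target genes of replication, 13 fell, with a median log2 fold change of -1.77; the smallest p-values were those of Pcna, the sliding clamp (-2.07 ± 0.17), Tyms, thymidylate synthase (-1.72 ± 0.15), and Mcm6, of the helicase (-1.91 ± 0.18). Of 12 mitotic kinases and checkpoint genes, 12 fell (median -1.62), with the smallest p-values for the spindle checkpoint kinase Bub1b (-2.07 ± 0.18), Nek2 (-1.75 ± 0.16) and Mad2l1 (-1.64 ± 0.16). Of 12 partners of E2Fs and of the DREAM complex, 10 fell, among them Lin9 (-1.71 ± 0.18), the mitotic transcription factor Foxm1 (-2.02 ± 0.23) and Rbbp4 (-1.39 ± 0.17). Myc, which drives growth and entry into the cycle, had 84.9, 54.2 and 55.1 CPM in the control libraries and 86.8, 128 and 82.3 CPM in the RANKL libraries and rose, by 0.61 ± 0.24 (edgeR adjusted p = 0.0438), while Mycn was not called at 0.27. Control replicate 1 overlapped the RANKL range of Myc.

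Of 11 tested genes that activate or oppose CDKs, 7 fell, 1 rose and 3 were not called. Fbxo5, the inhibitor of the anaphase-promoting complex in S phase, fell from 85.8 ± 6.92 to 10.97 ± 2.67 CPM (-2.96 ± 0.21), further than any member other than E2f2 and Ccnd3. Skp2, which marks p27 for degradation, changed by -1.83 ± 0.20, and the CDK subunit Cks2 by -1.74 ± 0.21. Cables1 was the riser (1.75 ± 0.31), and Wee1, Mnat1 and Fzr1 were not called. Because Cdkn1a is a p53 target, 12 genes of that pathway were listed, of which 5 rose, 4 fell and 3 were not called, shares of 41.7% and 33.3% that lie near the 33.8% and 29.6% of all genes. Pmaip1, a BH3-only death gene, had 15.1, 12.01 and 14.2 CPM in the control libraries and 106, 108 and 113 CPM in the RANKL libraries and rose by 2.98 ± 0.16, whereas Trp53inp1 (-2.52 ± 0.20) and Sesn1 (-2.05 ± 0.17) fell. Trp53 itself, at -0.36 ± 0.16, and Mdm2, its target and antagonist, at -0.08 ± 0.16, were not called. Whether p53 had a part in the rise of Cdkn1a was not tested.

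Ratios of 2 genes within a library do not depend on how libraries are scaled, and 12 were taken from read counts. Each difference between groups was tested with a two-sided exact permutation test, which cannot go below p = 0.1 with 3 against 3. The log2 ratio of Ccnd1 to Ccnd3 was -5.45, -5.39 and -5.91 in control and 0.32, -0.42 and -0.76 in RANKL libraries. It was higher in every RANKL library than in any control, by 5.30 on average, and in RANKL replicate 1 reads of Ccnd1 outnumbered those of Ccnd3 (exact p = 0.1, 0.2 after Benjamini-Hochberg adjustment over the 12). Cdkn1a to Cdkn1b moved almost as far, from -1.73, -2.26 and -2.32 to 2.89, 2.96 and 2.22, a difference of 4.80. The same smallest p, with no overlap, came for Ccne1 to Ccne2 (1.72), Ccnd1 to Ccnd2 (1.54), E2f1 to E2f4 (0.49) and Rb1 to Rbl1 (0.47). Ratios that overlapped were Cdk6 to Cdk4 (-0.72, exact p = 0.3, adjusted 0.36), Cdkn2c to Cdkn2d (-0.23, exact p = 0.5, adjusted 0.545), Ccnb1 to Mki67 (0.53, exact p = 0.3, adjusted 0.36) and Ccnd3 to Mki67 (-0.96, exact p = 0.2, adjusted 0.343).

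**Figure D4:**
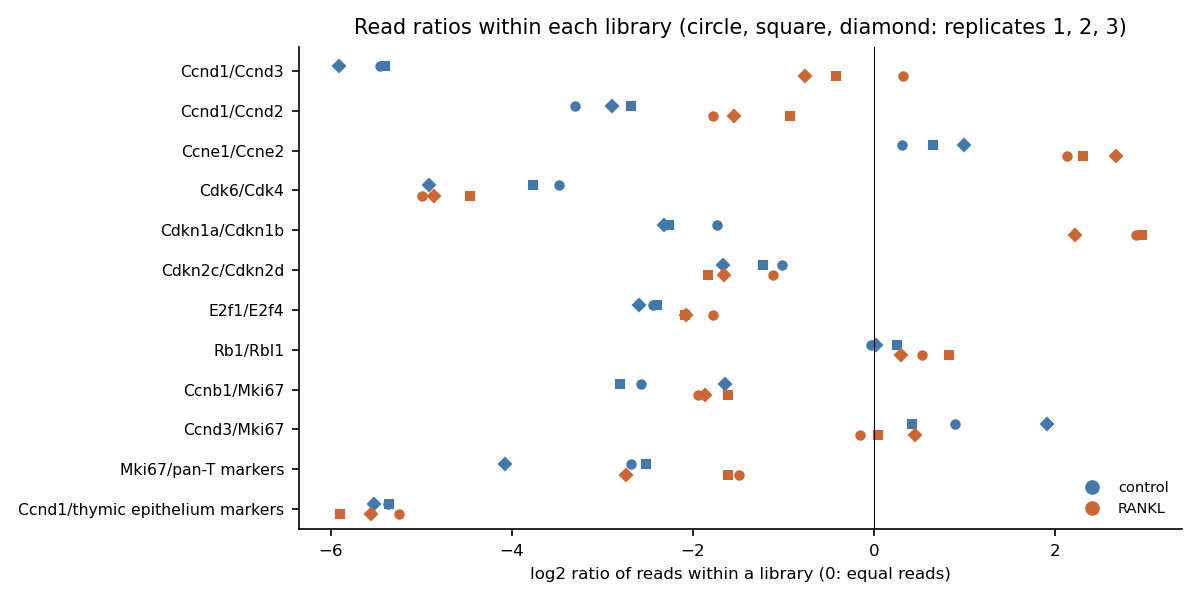
Log2 ratio of reads within each library (x axis) for 12 pairs, blue for control and orange for RANKL, with 1 marker shape per replicate. Ccnd1/Ccnd3 and Cdkn1a/Cdkn1b show the widest gaps between groups, and Cdk6/Cdk4, Cdkn2c/Cdkn2d and the last 4 pairs overlap.

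A few members were also set against markers of cell types. The log2 ratio of Mki67 to the 8 pan-T markers was -2.68, -2.52 and -4.08 in control and -1.49, -1.61 and -2.73 in RANKL libraries; the groups overlapped, and the difference of 1.15 had an exact p of 0.3, adjusted 0.36. On the scale of the fit, Ccnd3 changed by -3.14, E2f2 by -3.68 and Mki67 by -2.28, beside medians of -3.04 for pan-T and -4.35 for double-positive markers, of which 8 of 8 and 12 of 12 fell. Among RANKL libraries, replicate 3 had the highest and replicate 1 the lowest sums of both lists. Of the 57 members that fell, 23 were highest in RANKL replicate 3, Ccnd3 and E2f2 among them, 27 in replicate 2, Mki67 and Ccnb1 among them, and 7 in replicate 1, while 39 were lowest in replicate 1. The same ranks over all genes called lower are not given here, so these counts do not show whether the order was particular to the members. Ccnd1 stood to the 8 thymic epithelium markers at a log2 ratio of -5.36, -5.35 and -5.52 in control. In RANKL libraries the ratio was -5.24, -5.89 and -5.55, a difference of -0.15 with overlap (exact p = 0.6, adjusted 0.6). The sign of the difference turned without RANKL replicate 2 (0.017). Krt8 and Krt5 led the marker sum in control (means of 504 and 392 CPM). Krt5 and Krt14 led it in RANKL libraries (2360 and 995.5 CPM). Single markers changed by 0.52 (Krt8) to 4.57 (Cldn4), so this ratio depends on which markers weigh most.

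Epithelial markers rose in 8 of 8, with a median of 3.33, beside 2.13 for Ccnd1 and 3.18 for Cdkn1a. Keratinocyte markers, which summed to 41.5 to 65.8 in control and 1942 to 4727 in RANKL libraries, rose in 8 of 8, fibroblast and macrophage markers in 8 of 8 each and neutrophil markers, which summed to 43.6 to 74.97 in control and 3036 to 5566 in RANKL libraries, in 7 of 7. S100a9, Lcn2 and S100a8 were the largest parts of the neutrophil sum in RANKL libraries (means of 1510, 940 and 910 CPM). B cell markers summed to 119 to 129 in control and 53.7 to 133 in RANKL libraries. Which of these cells made the rising transcripts was not tested.

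**Figure D5:**
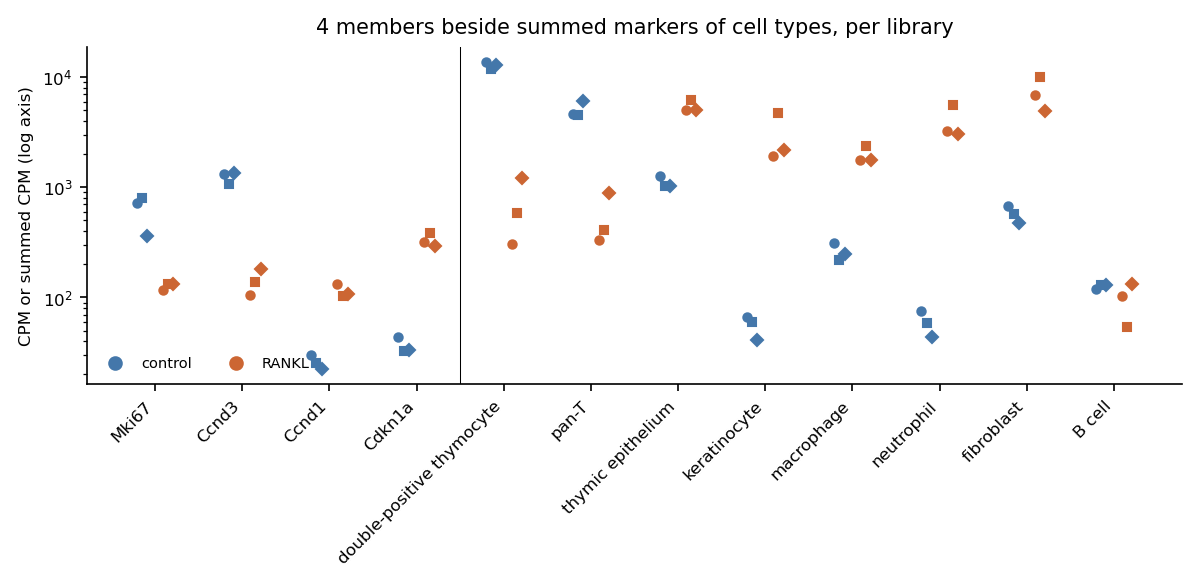
Level (y axis, CPM, log axis) in each library of Mki67, Ccnd3, Ccnd1 and Cdkn1a, left of the line, and the summed level of the markers of 8 cell types, right of it. Mki67 and Ccnd3 are lower in RANKL libraries as both thymocyte marker sums are, and Ccnd1 and Cdkn1a are higher as the epithelial, fibroblast and myeloid sums are.

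Exon length moved with the values in 2 ways, and its part in the changes was not tested. Control replicate 3 was lower than the other controls for long genes: its median log2 difference from them was 0.14 in the shortest of 4 equal classes of tested genes by exon length and -0.29 in the longest, the class that holds Mki67. Of 22 members in the longest class, control replicate 3 was the lowest control for 14, Mki67 among them, and the highest for 4, Ccnd3 among them. Across all genes the share called lower was 19.7% in the shortest class and 38.3% in the longest. Among the members it was 6 of 12 in the shortest, then 15 of 20, 18 of 27 and 18 of 22 in the longest, each a larger share than that of all genes in that class. Without control replicate 3, 55 members were lower and the same 7 higher, beside 4624 lower and 5225 higher of all 16597 genes tested. Exons of 39 members overlap another annotated gene, for 24 of them a gene listed under the same symbol in the count table. Ccne2 shares 17.4% of its exon length with Ints8 and Ccna2 12.5% with Exosc9. Cdkn1c shares more, 625 bases or 30.65%, with the antisense gene Gm44732, which is not among the counted symbols. Ccnd1 shares 1100 bases, 23.4%, with LTO1 on the opposite strand, which the table lists under its older symbol Oraov1. How reads in such stretches were counted is not stated in the labels.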

How the data were processed

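Poly(A) RNA of whole thymus was sequenced with a stranded kit in 3 control and 3 RANKL libraries, per the labels' protocols. The deposited values are raw read counts per gene symbol; STAR and mm10 are named in the submitters' processing notes. How reads were assigned to genes, with which strand rule and gene models, is not stated in the labels. The genotype label set the groups, and replicate numbers follow deposit order. Chi-square per degree of freedom between libraries of a group was 31.7 to 67.9, so no pair differed as little as sampling noise.

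Counts were filtered (filterByExpr), scaled by TMM and fitted with edgeR 4.0.16 (R 4.3.3; robust quasi-likelihood test, two-sided, Benjamini-Hochberg over all genes tested, threshold 0.05). Alternatives were other factors and filters, DESeq2 1.42.0, limma-voom 3.58.1, a block by range of title number, and each library left out. The test was also run on simulated counts in which few genes changed, unlike these data, so that run does not give error rates here. Ratios used reads plus 0.5 and exact permutation tests (SciPy 1.17.1). RPKM used GENCODE exon lengths, and coordinates and promoters came from RefSeq. Members, lists and tests were chosen with earlier results of these data known. Values in every library are given for the main cyclins, CDKs, inhibitors, pocket proteins, E2Fs, Mki67, Cdc6, Cdc20 and CDC25 genes whatever their outcome, and for the 5 called members without overlap that rose most and the 5 that fell most.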

Additional observations from a re-analysis of the deposited data

How the results depend on the processing

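The count of members called lower was 42 to 59 over all alternatives, and of those called higher 6 to 9. These lie within 1.5 times of 57 and 7. Of all 15007 to 20797 genes tested in these settings, 2654 to 5332 were called lower and 4407 to 5955 higher. With each library left out the counts were 48 to 57 lower and 7 to 9 higher. Of all 16279 to 16656 genes tested in those fits, 3902 to 4624 were lower and 5149 to 5549 higher. Of 81 tested members, 63 kept direction and call in 15 alternatives. Those 15 leave out the threshold of 0.01 and the test against a 1.5-fold change, which the ranges of counts above include. Upper-quartile factors moved the median of all genes by 0.10 (log2). Cdk10 ranged from -0.084 to 0.34 and Cdk5 from -0.10 to 0.32 with each library left out, negative without control replicate 1 in both. Among the within-library ratios, Ccnd1/thymic epithelium markers (log2) ranged from -0.309 to 0.017, positive without RANKL replicate 2. The cause was not tested. No paired analysis was possible because the labels carry no replicate numbers shared by the groups. Blocking on ranges of the title number instead gave 56 lower, 53 of them shared with the 57, and the same 7 higher. Of all 16096 genes, 4557 were lower and 5236 higher in that fit. Control replicate 2 was alone in its range, so it added nothing to the group difference there. Depth limited Ccna1, Cdk15 and Cdc20b, which were not tested.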
